A study of Mus musculus with 4 samples.

Results

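The sex hormone receptor genes described here are Pgr, Greb1, Esr1 and Nrip1, 4 of the 55536 genes in the deposited table, and each was found there by its symbol in exactly 1 row. Pgr encodes the progesterone receptor and Esr1 estrogen receptor alpha. Greb1 encodes a chromatin-bound partner of estrogen receptor alpha, and Nrip1 (also called RIP140) a corepressor of nuclear receptors. The genes were chosen with values of these same libraries known. Pgr and Greb1 were chosen by their difference between parental groups, and which values led to Esr1 and Nrip1 is not recorded. Their levels and differences are therefore given as a description, with no test.

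RNA sequencing was done on the stromal vascular cells of the inguinal fat pad, meaning the cells other than adipocytes, from wild type male mice at postnatal day 21. Each of the 4 libraries came from a pool of 3 mice. LnF1 and ObF1 are offspring groups in a study of parental obesity, and each gave 1 library with water and 1 with 1,3BD, the label's own abbreviation for the other drink. The 4 groups were thus LnF1 with water, LnF1 with 1,3BD, ObF1 with water and ObF1 with 1,3BD, all of wild type genotype, and none had a replicate.

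Steroid receptors are transcription factors that bind DNA after taking up their hormone, and coactivators or corepressors then join them. Estrogen bound to estrogen receptor alpha switches on Pgr and Greb1 in breast and uterus, so that both serve as readouts of estrogen action there. NRIP1 is itself induced by estrogen in human breast cancer cells, and its protein restrains estrogen receptor alpha. In adipocytes of the mouse, Nrip1 is known for holding down genes of fat burning. Stromal cells of fat carry estrogen receptors and can make estrogen through the enzyme aromatase.

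The DNA just before the start of each gene is shown because Pgr and Greb1 differed together between the parental groups and both are known estrogen targets. Each window holds the 250 bases before a start site listed by RefSeq on GRCm38.p6, written 5′ to 3′ along the gene's own strand. The windows are Pgr at chr9:8899583-8899832 (plus strand), the far Greb1 start at chr12:16800887-16801136 (minus strand), the near Greb1 start at chr12:16757240-16757489 (minus strand), Esr1 at chr10:4611739-4611988 (plus strand) and Nrip1 at chr16:76373828-76374077 (minus strand). Capitals mark GGTCA or its reverse complement TGACC, the arms of the estrogen response element.
Pgr: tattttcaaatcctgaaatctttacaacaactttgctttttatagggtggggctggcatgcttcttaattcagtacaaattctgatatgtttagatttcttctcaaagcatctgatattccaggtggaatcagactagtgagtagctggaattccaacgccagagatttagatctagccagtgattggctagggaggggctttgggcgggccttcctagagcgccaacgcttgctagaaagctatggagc
Greb1 far start: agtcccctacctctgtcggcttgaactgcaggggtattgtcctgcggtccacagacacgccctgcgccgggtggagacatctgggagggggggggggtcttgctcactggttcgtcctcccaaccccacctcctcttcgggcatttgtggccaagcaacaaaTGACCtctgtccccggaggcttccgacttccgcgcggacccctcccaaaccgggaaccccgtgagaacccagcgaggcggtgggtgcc
Greb1 near start: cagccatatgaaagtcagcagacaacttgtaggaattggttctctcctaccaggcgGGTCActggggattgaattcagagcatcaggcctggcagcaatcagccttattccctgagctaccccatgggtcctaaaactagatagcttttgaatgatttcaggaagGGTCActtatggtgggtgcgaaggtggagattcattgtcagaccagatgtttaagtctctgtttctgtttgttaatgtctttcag
Esr1: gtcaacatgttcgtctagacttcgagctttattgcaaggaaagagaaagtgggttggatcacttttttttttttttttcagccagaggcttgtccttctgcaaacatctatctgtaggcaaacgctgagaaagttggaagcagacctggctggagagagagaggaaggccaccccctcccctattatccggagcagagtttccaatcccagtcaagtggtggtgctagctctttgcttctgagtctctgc
Nrip1: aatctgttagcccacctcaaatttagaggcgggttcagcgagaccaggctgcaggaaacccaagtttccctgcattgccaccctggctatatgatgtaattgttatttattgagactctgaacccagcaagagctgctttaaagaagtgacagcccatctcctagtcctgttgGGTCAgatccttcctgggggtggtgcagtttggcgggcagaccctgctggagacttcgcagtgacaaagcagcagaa

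The complete element GGTCANNNTGACC, read on both strands, was in none of these windows, nor in the second RefSeq windows of Esr1 and Nrip1, and it was in 0.0639% of all 32851 mouse windows of this length. A single arm stood 88 to 84 bases before the far Greb1 start and 77 to 73 bases before the Nrip1 start. The near Greb1 start had 2 such arms, at 194 to 190 and at 85 to 81 bases before it. The Pgr and Esr1 windows held none, and 35.2% of all windows held at least 1. The arms AGAACA and TGTTCT of the element shared by the progesterone and glucocorticoid receptors were in none of the members' windows and in 16.1% of all windows. A match is a description of letters, and the gene-level table does not tell which start site was used.

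Values are read counts scaled to library size (CPM), in which 1 read was worth between 0.0359 and 0.0434 CPM. The libraries held between 24586827 and 26000090 reads. By the counting interval described next, a count of 0 allows at most 0.160 CPM. Intervals in brackets are exact 95% counting intervals, which cover counting error only and not the spread between animals. The 4 libraries carried fibroblast and male genes. Pdgfra, a receptor of adipose progenitors, stood between 236 and 412 CPM, and the Y-linked gene Ddx3y between 88.9 and 140.5 CPM. The 7 white blood cell markers summed to between 3.12 and 14.5 CPM, most of it Lyz2 and Cd68, and Ptprc reached at most 0.150 CPM. Mammary epithelium is another place where Pgr and Greb1 are expressed. Of 11 markers of its luminal cells, 8 stayed below 1 CPM in every library, among them Epcam, Krt8 and Elf5 with 0 reads. Krt19 of the same list reached 88.2 CPM, Prlr 3.91 CPM and Krt7 1.91 CPM, and Cdh3 of basal epithelium reached 73.0 CPM. Krt7 stood at 0.382 CPM in LnF1 and 1.91 CPM in ObF1 with water and had 0 reads with 1,3BD. Prlr went the other way with water, at 2.63 CPM in LnF1 and 0.217 CPM in ObF1. Of the adipocyte markers, Adipoq had 0 reads in every library and Plin1 reached 5.09 CPM. In such bulk samples, fewer cells of a type and less RNA per cell cannot be told apart.

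**Figure D1:**
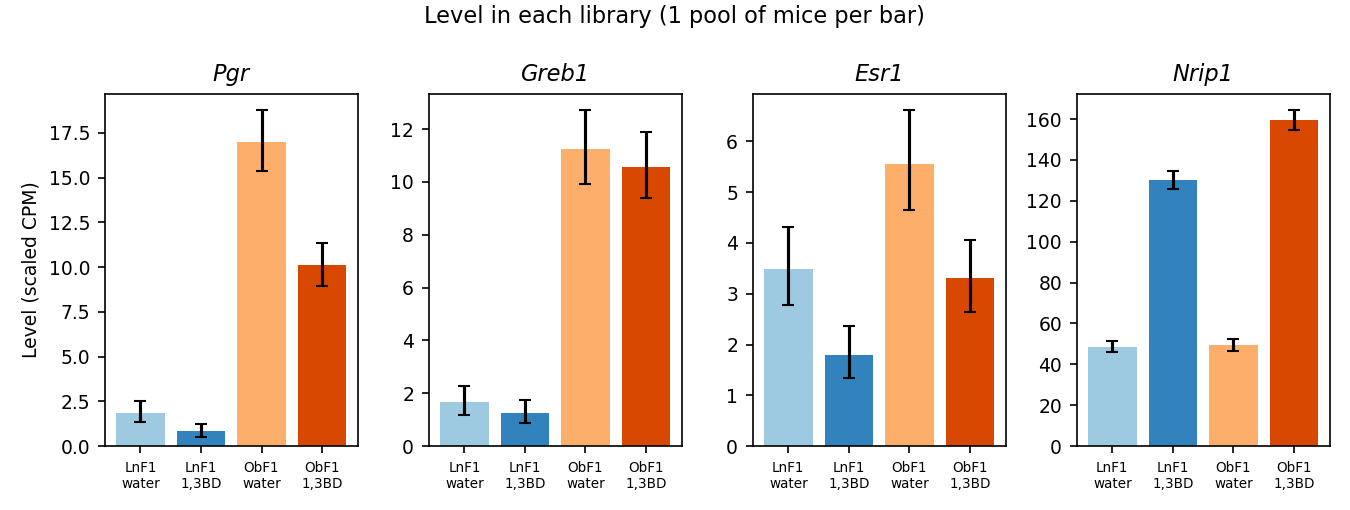
Level of Pgr, Greb1, Esr1 and Nrip1 in scaled CPM (vertical axes, each starting at 0) in the 4 libraries; bars are single libraries of 3 pooled mice, and error bars are 95% counting intervals. Pgr and Greb1 are high in both ObF1 libraries and Nrip1 in both 1,3BD libraries, where it stands at 130.2 and 159 CPM.

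Pgr, on chromosome 9 from 8899833 to 8968611 (plus strand, mm10), stood at 1.87 CPM in LnF1 with water [1.36 to 2.51], 0.825 in LnF1 with 1,3BD [0.523 to 1.24], 17.0 in ObF1 with water [15.3 to 18.8] and 10.1 in ObF1 with 1,3BD [8.92 to 11.4]. Both ObF1 libraries were above both LnF1 libraries, and no counting interval overlapped another. These values rest on 44, 23, 391 and 269 reads. Pgr was 9.10-fold higher in ObF1 than in LnF1 with water [6.65 to 12.7] and 12.2-fold higher with 1,3BD [7.98 to 19.6]. Among the 12838 genes that reached 1 CPM in 2 or more libraries, its log2 difference had rank 6 from the top with water and rank 3 with 1,3BD. In both parental groups Pgr was lower with 1,3BD than with water, 2.26-fold in LnF1 [1.34 to 3.93] and 1.68-fold in ObF1 [1.44 to 1.97].

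Greb1, on chromosome 12 from 16670615 to 16800886 (minus strand), stood at 1.66 CPM in LnF1 with water [1.18 to 2.26], 1.26 in LnF1 with 1,3BD [0.874 to 1.75], 11.3 in ObF1 with water [9.92 to 12.7] and 10.6 in ObF1 with 1,3BD [9.38 to 11.9]. Both ObF1 libraries were again above both LnF1 libraries, while within each parental group the intervals of the drinks overlapped. Greb1 was 6.80-fold higher in ObF1 with water [4.84 to 9.78] and 8.43-fold higher with 1,3BD [5.92 to 12.3]. Its ratio of 1,3BD to water was 0.758 in LnF1 [0.466 to 1.23] and 0.940 in ObF1 [0.791 to 1.12], so no drink difference was detectable at this depth. The sign of the ObF1 drink difference turned when library totals were used without scaling factors. The antisense gene Gm48140 inside Greb1 had at most 0.0750 CPM and the microRNA gene Gm44305, also inside it, had 0 reads. No gene of the annotation overlapped the other 3 members.

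Esr1, on chromosome 10 from 4611593 to 5005614 (plus strand), had the lowest level per length of the 4 in both ObF1 libraries. In CPM it stood at 3.48 CPM in LnF1 with water [2.77 to 4.32], 1.79 in LnF1 with 1,3BD [1.33 to 2.36], 5.56 in ObF1 with water [4.64 to 6.61] and 3.30 in ObF1 with 1,3BD [2.65 to 4.07]. The ObF1 library with water was highest and the LnF1 library with 1,3BD lowest, with the other 2 between them and overlapping each other. Esr1 was 1.60-fold higher in ObF1 with water [1.20 to 2.13] and 1.84-fold higher with 1,3BD [1.29 to 2.66]. It was 1.94-fold lower with 1,3BD in LnF1 [1.35 to 2.82] and 1.69-fold lower in ObF1 [1.27 to 2.24]. Counts were small, at 82, 50, 128 and 88 reads.

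Nrip1, on chromosome 16 from 76287400 to 76373827 (minus strand), was the most abundant of the 4 and followed the drink. It stood at 48.6 CPM in LnF1 with water [45.8 to 51.5], 130.2 in LnF1 with 1,3BD [126 to 134], 49.5 in ObF1 with water [46.7 to 52.5] and 159 in ObF1 with 1,3BD [155 to 164]. Both 1,3BD libraries were above both water libraries, and the water libraries could not be told apart. Nrip1 was 2.68-fold higher with 1,3BD in LnF1 [2.51 to 2.86] and 3.22-fold higher in ObF1 [3.01 to 3.44]. Between parental groups its ratio was 1.02 with water [0.938 to 1.11] and 1.22 with 1,3BD [1.17 to 1.28].

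**Figure D2:**
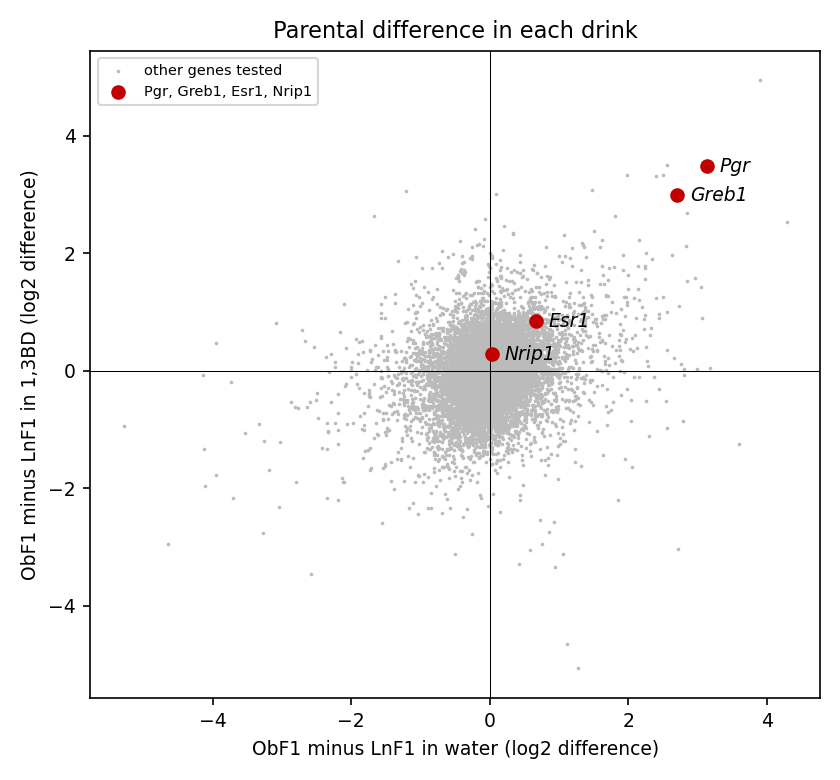
Log2 difference ObF1 minus LnF1 with water (horizontal axis) and with 1,3BD (vertical axis) for the 12838 genes tested; grey points are other genes and red points the 4 members. Pgr (3.13 and 3.49) and Greb1 (2.71 and 3.00) lie near the upper right edge, and Nrip1 (0.03 and 0.29) lies in the bulk of genes.

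On the log2 scale with a pseudocount of 0.0796 CPM, worth 2 reads, the parental difference with water and with 1,3BD was 3.13 and 3.49 for Pgr, 2.71 and 3.00 for Greb1, 0.66 and 0.85 for Esr1, and 0.03 and 0.29 for Nrip1. The 2 differences of each gene share no library. Pgr and Greb1, 2 of the 4, were at least 2-fold higher in ObF1 in both drinks, as were 0.732% of all genes tested, and 0.537% were at least 2-fold lower in both. All 4 were higher in ObF1 in both drinks at any size, as were 30.2% of all genes, while 28.5% were lower in both. This contrast took part in the choice of the members, so nothing is read from these counts. In each drink the gap between the parental groups was widest for Pgr and Greb1, whose counting intervals of the ratio overlapped. It was smaller for Esr1 and narrowest for Nrip1, and this order too is a description only.

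The drink difference in LnF1 and in ObF1 was -1.11 and -0.75 for Pgr, -0.38 and -0.09 for Greb1, -0.93 and -0.74 for Esr1, and 1.42 and 1.69 for Nrip1. Nrip1, 1 of the 4, was at least 2-fold higher with 1,3BD in both parental groups, as were 7.37% of all genes. None of the 4 was at least 2-fold lower in both, against 12.6% of all genes. At any size Nrip1 was higher in both parental groups, as were 38.5% of all genes, and the other 3 were lower in both, as were 43.5%. Nothing is read from these counts either. By size Nrip1 lay above 95.2% of genes in LnF1 and above 95.8% in ObF1, while Pgr and Esr1 lay in the lower part of the distribution, above 14.3% and 17.8% of genes in LnF1 and above 25.9% and 26.2% in ObF1. Using library totals without factors moved the median gene by 0.25 in LnF1 and 0.24 in ObF1 for drink and by -0.10 with water and -0.11 with 1,3BD for parents, so these values are relative to the deposited scaling.

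**Figure D3:**
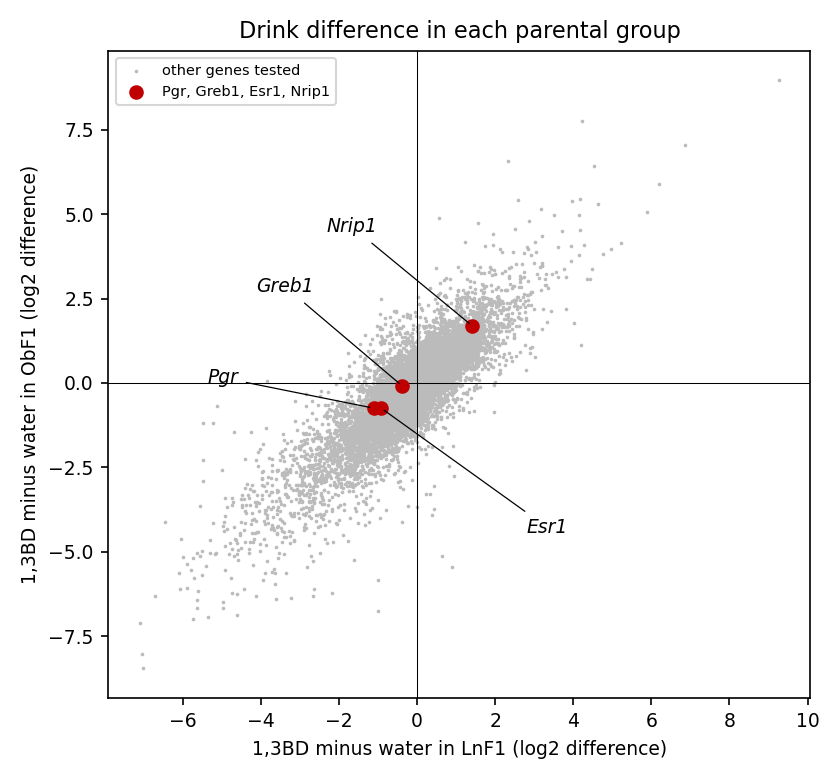
Log2 difference 1,3BD minus water in LnF1 (horizontal axis) and in ObF1 (vertical axis) for the same genes, with the same symbols. Nrip1 (1.42 and 1.69) lies toward the upper right, while Pgr and Esr1 lie together on the lower side of zero and Greb1 near it.

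Ratios between receptors within a library do not depend on the scaling. Per kilobase of exon, Pgr stood at 0.858 of the Esr1 level in LnF1 with water, 0.735 in LnF1 with 1,3BD, 4.88 in ObF1 with water and 4.89 in ObF1 with 1,3BD. The ratio of Greb1 to Esr1 was 0.678, 0.998, 2.89 and 4.57 in the same order. By this length, which joins all annotated exons of a gene (13.661 kb for Esr1), both genes stood at or below Esr1 in LnF1 and above it in ObF1. Another length would move each ratio by the same factor in every library, so only the differences between libraries are free of it. The ratio of Pgr to Greb1 was 1.26, 0.737, 1.69 and 1.07 in the same order, lower with 1,3BD than with water in both parental groups. Per kilobase, Esr1 lay above 2.53% to 6.78% of the genes tested, Pgr above 1.85% to 27.7%, Greb1 above 2.28% to 20.1% and Nrip1 above 45.6% to 76.4%.

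Genes with the most similar profile over the 4 libraries were named by distance. As the measure of likeness, the Euclidean distance between centred log2 profiles was below 0.5 for 421 genes around Nrip1, 157 around Esr1, 1 around Pgr and 0 around Greb1. Genes chosen by a large difference have few neighbours by this measure, so nothing is read from these counts. The nearest to Pgr was the inflammatory protease gene Casp1 (distance 0.44), which stood at 0.340, 0.143, 4.13 and 1.65 CPM. Greb1 came next to Pgr (0.83), followed by Vit (0.86), and the nearest to Greb1 was Pgr, followed by Mboat2 (0.94) and Casp1 (0.97). The nearest to Esr1 were Fmn1 (0.16), Tdrkh (0.18) and Masp1 (0.19). The nearest to Nrip1 were Abraxas1 (0.07), Hilpda (0.07), a gene of lipid droplets, and Zfp292 (0.09). These distances rest on 4 libraries and on few reads for Casp1 and Vit.

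Markers of other cell types, and of fibroblasts, differed between the parental groups in the water libraries. The summed level of 3 Schwann cell markers was 2.67 CPM in LnF1 and 15.6 in ObF1 with water, with 3 of 3 higher in ObF1, but 1.97 and 0.712 with 1,3BD, with 0 of 3 higher. The 5 endothelial markers summed to 7.17 and 18.6 CPM with water, 4 of 5 higher in ObF1, and 1.18 and 2.70 CPM with 1,3BD, 3 of 5 higher, and Cldn5 had at most 1 read. The 6 mural and contractile markers summed to 7870 and 8383 CPM with water (5 of 6 higher in ObF1) and 121 and 180 CPM with 1,3BD (3 of 6). Acta2 alone gave 7692 and 8097 CPM of the water sums. The 11 luminal epithelium markers summed to 58.3 and 90.7 CPM with water (6 of 11 higher) and 7.06 and 11.1 CPM with 1,3BD (3 of 11), and Krt19 alone gave 55.1 and 88.2 CPM of the water sums. The white blood cell sum was 14.5 and 8.39 CPM with water (1 of 7 higher in ObF1) and 3.12 and 7.57 CPM with 1,3BD (4 of 7). Of the 9 fibroblast and progenitor markers, 3 were higher in ObF1 with water and 5 with 1,3BD. With water, Dcn stood at 328 CPM in LnF1 and 63.9 in ObF1, Lum at 6.54 and 0.695 CPM, and Cd34 at 13.5 and 3.56 CPM. The part of these markers in the parental differences was not tested. Several lists also differed by drink. The fibroblast and progenitor sum went from 17421 to 4891 CPM in LnF1 (1 of 9 higher with 1,3BD) and from 19262 to 4084 CPM in ObF1 (4 of 9), most of it Col1a1. With water and 1,3BD, Cdh3 of basal epithelium stood at 73.0 and 1.29 CPM in LnF1 and at 71.1 and 1.87 CPM in ObF1. Acta1 of muscle stood at 86.5 and 1.83 CPM, then at 61.8 and 1.87 CPM. Of 5 adipocyte markers, 3 had 0 reads throughout, and Plin1 stood at 0.0849 and 5.09 CPM in LnF1 and 0.0434 and 1.84 CPM in ObF1 with water and 1,3BD. The part of these markers in the drink differences was not tested.

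The other genes of the axis were taken from lists by role, 174 genes without the 4 members. The lists were chosen with earlier results of these data known, so their shares here and below are a description only. Of the 174 genes, 2 had no row under their symbol and 122 were tested. The other 50 were below the filter on low values, 19 of those with 0 reads throughout. The test was limma, fitted to all 12838 genes with parents and drink as terms and p-values adjusted over all of them, at a threshold of 0.05. It leaves 1 residual degree of freedom, so that its error is how far the same gene's 2 single-library differences disagree, pooled over genes. For parents, 1 of the 122 was called (0.820%), against 0.296% of all genes, 0.195% higher and 0.101% lower in ObF1. Over the same 122 genes edgeR called 1 and DESeq2 5. The limma call was lost with a pseudocount of 1 CPM, at a mean of at least 5 CPM, with library totals and without any 1 of the libraries, where 0 genes were called. At an unadjusted limma p under 0.05 there were 29 of 122 (23.8%), against 10.8% of all genes. For drink, 34 rose and 33 fell (54.9%), against 19.2% and 24.8% of all genes and 44% in either direction, and the median was -0.11 against -0.06.

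Hormone receptors other than Pgr and Esr1 included some with almost no reads and some present in every library. Esr2, for estrogen receptor beta, had 1 read in LnF1 with water and 0 in the other libraries, and Gper1, for a membrane estrogen receptor, had 3, 2, 0 and 0 reads. The membrane progesterone receptor component genes Pgrmc1 (177 to 215 CPM) and Pgrmc2 (115 to 122 CPM) were abundant and not called in either contrast. Paqr7 and Paqr8, which encode membrane progestin receptors, fell with 1,3BD. With water and 1,3BD, Paqr7 was at 19.0 and 1.18 CPM in LnF1 and at 14.5 and 1.69 CPM in ObF1 (log2 -3.48, SE 0.34, limma adjusted p = 2.32e-05). Paqr8 was at 11.6 and 6.45 CPM, then at 17.5 and 6.19 CPM, (log2 -1.16, limma adjusted p = 0.00660). Nr3c1, for the glucocorticoid receptor, stood at 71.9, 87.6, 109.9 and 102.3 CPM and was not called.

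Enzymes that make or clear sex steroids were in part silent. Of 27, 12 were tested, and Cyp19a1, the aromatase gene, had 0 reads in all 4 libraries, as did Cyp11a1 and the binding globulin gene Shbg. With 1,3BD, 4 rose and 3 fell (33.3% and 25.0% of those tested, against 19.2% and 24.8% of all genes). Star, which carries cholesterol into mitochondria, rose in LnF1 (2.46 to 24.5 CPM) and in ObF1 (3.35 to 28.8 CPM; log2 3.17, SE 0.27, limma adjusted p = 8.54e-06). Hsd17b7 (log2 1.12), which acts on estrone and in cholesterol synthesis, and Hsd17b11 (0.75) also rose. Cyp7b1, a steroid hydroxylase gene, fell in LnF1 (9.59 to 2.26 CPM) and in ObF1 (log2 -2.07 in the fit). Hsd17b10 (-1.10) also fell.

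Coregulators of receptors were abundant and moved both ways with drink. Of 14 coactivator genes tested, 6 rose and 2 fell (42.9% and 14.3%, against 19.2% and 24.8% of all genes), with a median of 0.39. They included Ep300, an acetyltransferase (log2 0.91), Ncoa4 (0.84), Med1 of the Mediator complex (0.76), Ncoa2 (0.63) and Ncoa1 (0.60, limma adjusted p = 0.0414). The methyltransferase genes Prmt1 (-1.66) and Carm1 (-0.63) fell, and Ncoa3 (-0.30, limma adjusted p = 0.286) was not called. Of 11 corepressor genes other than Nrip1, 3 rose and 3 fell (27.3% each, against the same shares of all genes), with a median of 0.17. Ncor1 rose in LnF1 (151 to 275 CPM) and in ObF1 (177 to 358 CPM). Tbl1xr1 (1.26) and Sin3a (0.81) rose, and Ctbp1 (-1.03) and Phb2 (-0.73) fell.

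Of the factors that open chromatin for steroid receptors in breast, Foxa1 had at most 2 reads per library. Gata3 stood between 0.806 and 2.48 CPM and was not called. Of 9 such factors and partners tested, 4 rose with 1,3BD and 1 fell (44.4% and 11.1%, against 19.2% and 24.8% of all genes), with a median of 0.60. Nr2f2, which acts downstream of progesterone in uterine stroma, rose in LnF1 (41.8 to 111.5 CPM) and in ObF1 (67.4 to 143.5 CPM; log2 1.25, SE 0.20, limma adjusted p = 0.000612). Foxo1 (0.91), Cebpb (0.76) and Hand2 rose as well, and Runx1 (-0.98) fell. Nr2f2, Foxo1, Cebpb and Hand2 are also in the progesterone-responsive list below and are counted again there. Of 12 chaperone genes of the receptor complex, 2 rose and 1 fell (16.7% and 8.33%, both below the shares of all genes). Fkbp5 rose by 1.98 and Ppid by 1.32, and Fkbp4, a close relative of Fkbp5 in that complex, fell (-0.69).

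Genes known to respond to the hormones were counted by list, and the lists were not tested against each other or against other genes. Some genes are in several lists and are counted in each, among them Fkbp5, Zbtb16, Tsc22d3 and Igf1. Of 21 estrogen-responsive genes tested, a list drawn from breast and uterus, 2 rose with 1,3BD and 11 fell (9.52% and 52.4%, against 19.2% and 24.8% of all genes), with a median of -0.83. Ccnd1, for cyclin D1, fell in LnF1 (131 to 12.4 CPM) and in ObF1 (91.3 to 13.7 CPM). The transglutaminase gene Tgm2 (log2 -4.80) and the keratin gene Krt19 (-3.70) fell as well. Myc rose in both groups (33.0 to 99.5 CPM and 61.1 to 120.5 CPM), and Vegfa, an angiogenic factor, rose by a log2 difference of 0.90. Tff1, a classical estrogen target of human breast cells, had 0 reads throughout. For parents, 0 of the 21 tested genes were called, against 0.296% of all genes, with a median of 0.09 against 0.01. At such a share a short list is likely to hold no call, so no lack of difference is read from it. In both drinks Stc2 (log2 1.29 in the fit) and Ret (1.37) were higher in ObF1 and Cxcl12 (-0.99) was lower. In the progesterone-responsive list below, 0 of 18 were called for parents, with a median of -0.10. There Wnt4 (-1.55) and Prlr (-2.44) were lower in ObF1 in both drinks, and Nr2f2 (0.53) and Errfi1 (0.52) were higher.

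Of 18 progesterone-responsive genes tested, 12 rose with 1,3BD and 2 fell (66.7% and 11.1%, against 19.2% and 24.8% of all genes), with a median of 1.01. Zbtb16, a zinc finger transcription factor gene, had 0 reads in both water libraries and, with 1,3BD, 48.7 CPM in LnF1 and 39.8 CPM in ObF1. Errfi1, an inhibitor of EGF receptor signalling, rose in LnF1 (194 to 598 CPM) and in ObF1 (304 to 787 CPM). Hoxa10 (-0.80) and Sgk1 (-0.65) fell. The progesterone and glucocorticoid receptors share a response element, and whether either receptor took part in these differences was not tested. Of 16 androgen-responsive genes, 5 rose and 5 fell (31.2% each, against 19.2% and 24.8% of all genes), with a median of -0.20. The transporter gene Abcc4 rose in LnF1 (16.0 to 80.2 CPM) and in ObF1 (22.5 to 116.5 CPM). Igf1, a growth factor gene, fell in both (134 to 20.9 CPM and 51.0 to 19.8 CPM), and Ndrg1 (-1.50) and Sord (-1.09) fell.

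**Figure D4:**
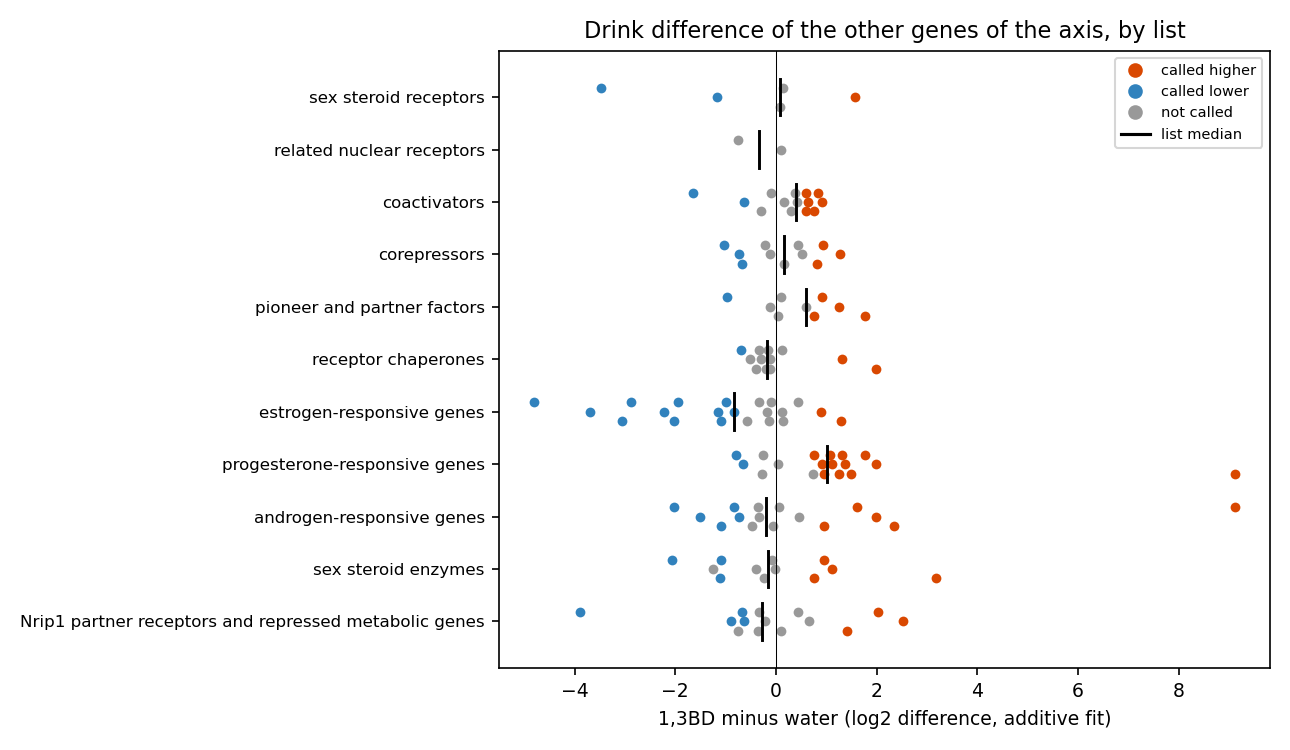
Log2 difference 1,3BD minus water from the additive fit (horizontal axis) for each tested gene of the axis other than the 4 members, by list (vertical axis, small offsets only to separate points); orange genes were called higher, blue lower and grey not called, and black bars are list medians. The estrogen-responsive list has its median at -0.83 and the progesterone-responsive list at 1.01; the points at 9.11 are Zbtb16, which is in 2 lists and whose value depends on the pseudocount.

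Of 14 tested genes that Nrip1 is known to partner with or to repress, 3 rose with 1,3BD and 4 fell (21.4% and 28.6%, near the 19.2% and 24.8% of all genes), with a median of -0.27. Ucp1 and Cidea, which Nrip1 holds down in mouse fat, had 0 reads in every library. Pdk4, which restrains glucose oxidation, rose in LnF1 (9.64 to 48.2 CPM) and in ObF1 (12.7 to 86.3 CPM). Pparg, the adipogenic nuclear receptor, rose by 1.42 on the log2 scale and Thrb, a thyroid hormone receptor, by 2.03, while its relative Thra (-0.89), Nr1h2 (-0.63) and the oxidation enzyme gene Acadvl (-0.67) fell.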

How the data were processed

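Expression was measured in 4 libraries, 1 per combination of parents and drink. The deposited table holds a scaled signal per gene. Every value was a whole multiple of its column's smallest value (100% within a relative tolerance of 1e-06), so whole reads were recovered, and the signal is read as CPM with a factor between 0.885 and 1.134 on the library total. Per the submitters' processing notes the build was mm10 and edgeR and DESeq2 were used, with no version or role stated. Aligner, counter, annotation and whether strand was used were not given in the sources used here. Columns that name no drink were matched to water. Per the labels' protocols, total RNA from TRIzol extracts went into KAPA mRNA libraries. The error behind the limma p-values is how far the same gene's single-library differences disagree, pooled over genes. Spread between libraries of the same group could not be measured, because each group had only 1 library.

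Members and gene lists were chosen with earlier results of these data known. The 12838 genes that reached 1 CPM in 2 or more libraries entered limma 3.58.1 (trend, robust) on log2(CPM + 0.0796), additive in parents and drink, with Benjamini-Hochberg adjustment at 0.05. A fold change on this scale understates that of low genes. From each list up to 3 called genes per contrast and direction are named, those with the largest smaller single-library difference at a mean of at least 5 CPM, beside 15 fixed genes and the 3 nearest profiles of each member. Other genes are named as members of short counts or of the marker lists. Some of them, such as Hand2, Cyp11a1, Shbg, Cidea and Nr3c1, were chosen after their values were seen. So were the genes named for their parental difference in the estrogen-responsive and progesterone-responsive lists. Results on some genes of the lists are not reported here. Alternatives were another pseudocount, filters, library totals, RLE factors, edgeR 4.0.16 and DESeq2 1.42.0 on recovered reads, and leaving out each library. Exon lengths and gene positions are from GENCODE M21 (GRCm38, the same assembly as mm10), which held 99.8% of the identifiers; 2271 of the 2339 rows lacking a symbol took theirs from a reference table of gene names.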

Additional observations from a re-analysis of the deposited data

Results flagged for a closer look

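Each of these genes had opposite signs in the 2 single-library differences of a contrast, and neither difference between them was tested. Ncoa1 gave log2 differences between ObF1 and LnF1 of -0.15 with water and 0.11 with 1,3BD, which differ by 0.265. Gata3 gave log2 differences between 1,3BD and water of 0.24 in LnF1 and -0.47 in ObF1, which differ by -0.714, on 19 to 57 reads per library.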

How the results depend on the processing

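The 16 single-library differences of the members kept their values within the counting intervals in 56 of 64 comparisons with another setting, and the other 8 moved. A pseudocount of 1 CPM moved the parental differences with water and 1,3BD to 2.65 and 2.60 for Pgr and to 2.21 and 2.36 for Greb1. Library totals moved the drink difference of Pgr in ObF1 to -0.50, those of Nrip1 to 1.68 in LnF1 and 1.93 in ObF1, and the parental difference of Nrip1 with 1,3BD to 0.18. Over all genes, 38 were called for parents (25 higher and 13 lower), and 13 with a pseudocount of 1 CPM, 352 with no filter, 15 at a mean of at least 5 CPM and 117 with DESeq2. Library totals gave 16 higher and 13 lower. Leaving out 1 library gave 0 to 2. Of the axis genes, 1 was called for parents, and 0 with a pseudocount of 1 CPM, at a mean of at least 5 CPM or with library totals, 9 with no filter and 5 with DESeq2; leaving out 1 library gave 0 to 0. For drink, 5655 genes were called (2466 higher and 3189 lower), and library totals turned the split to 3687 higher and 2270 lower; leaving out 1 library gave 1900 to 4657. Of the axis genes, 67 were called for drink (34 higher and 33 lower), with 42 higher and 22 lower under library totals and 29 to 55 without 1 library. Fits without 1 library also lose the other term. Of the 48 axis genes named as called for drink, 40 were still called with library totals, 45 with DESeq2 and at least 47 under each other setting with all libraries, and 22 to 38 without 1 library; none of them changed sign. The cause of these changes was not tested. No paired analysis was possible because each group had only 1 library. The reads behind Pgr, Greb1 and Esr1 in LnF1 (23 to 82) limit how closely their ratios are known.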
